A study of Homo sapiens with 13 samples.

Results

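The core autophagy machinery is taken here as 37 genes chosen by symbol for their place in the pathway, from the kinase complex that starts an autophagosome to the proteins that fuse it with a lysosome, without cargo receptors and ATG8 genes. All 37 were among the 60591 genes of the count table, and all 37 passed the filter on low counts that left 19514 genes. RNA was sequenced from cells labelled TE11, an esophageal squamous carcinoma line, after 48 h under 4 conditions. They were 10 µM chloroquine with 25 µM 5-fluorouracil (the combination, n = 3), 25 µM 5-fluorouracil alone (5-FU, n = 3), 10 µM chloroquine alone (n = 3) and the vehicle, 0.1% DMSO (n = 4). Every library is of 1 cell line kept in the same serum-containing medium, and no label ties the replicates to cultures of their own. The spread behind each p-value is thus one between libraries and could be technical. The questions the design poses are what each drug did to these transcripts, what both drugs did together, and whether the effect of chloroquine differed in the presence of 5-FU.

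Autophagy encloses cytoplasm in a double membrane and delivers it to the lysosome for digestion. The ULK kinase complex starts the process, a lipid kinase complex around BECN1 marks the membrane with phosphatidylinositol 3-phosphate, WIPI proteins read that mark, and ATG2 and ATG9A bring lipid to the growing membrane. Conjugation enzymes then attach ATG8 proteins to it, and SNARE proteins and tethers join the closed autophagosome to the lysosome. Chloroquine is a weak base that collects in lysosomes and blocks the last steps, while 5-FU is a pyrimidine analogue that disturbs thymidylate synthesis and RNA metabolism. Transcript levels do not measure the flow of material through the pathway.

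Library totals ran from 17834539 to 23679833 counts, and the members had between 78 and 4480 counts in each library. Of 11 squamous epithelial markers, KRT4 and SPRR1B had no count in any library, 10 had at most 12 counts, and the 11 together summed to 8 to 81 counts, so the labelled squamous identity was not borne out by its markers. Of 5 neuronal genes, the filament genes NEFL, NEFM and INA had 1579 to 3379, 971 to 1699 and 2324 to 5413 counts, while STMN2 had 0 to 27 and TUBB3 30 to 102. Counts of VIM, a mesenchymal filament gene, were 12231 to 20614. Of 5 simple epithelial markers, KRT18 had 747 to 1361 counts, KRT8 54 to 389, EPCAM 27 to 74, CDH1 27 to 57 and KRT19 0 to 4. Combination replicate 2, 5-FU replicate 2, chloroquine replicates 1 and 2 and vehicle replicate 4 held 153 to 741 counts of COL1A2, a fibroblast collagen gene, and the remaining 8 libraries held 1 to 7. Counts of HBB, a red cell globin gene, were 136 and 88 in chloroquine replicates 1 and 2 and 203 in vehicle replicate 4, but 0 in combination replicate 2 and 5-FU replicate 2. The 5 exocrine gland markers summed to 7 counts in combination replicate 2, 530 in 5-FU replicate 2, 446 and 265 in chloroquine replicates 1 and 2 and 463 in vehicle replicate 4, against 4 to 11 in the other libraries. A list of 7 fibroblast markers summed to 13.2 to 30.5 CPM (counts relative to the scaled library total) in the combination, 24.5 to 40.6 with 5-FU, 11.9 to 95 with chloroquine and 10.7 to 129 in vehicle. Counts of changed members are therefore given also for the 8 libraries with few COL1A2 counts, which leave chloroquine with 1 library, taken in the fit to vary like the libraries of the other groups. CPM were scaled by the trimmed mean of M values (TMM) throughout. A log2 fold change is followed by ± its SE.

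In the combination, 13 of the 37 genes rose and 15 fell against vehicle (edgeR quasi-likelihood test, Benjamini-Hochberg adjusted p under 0.05 over all genes), where 28.1% of all tested genes rose and 27.2% fell. With 5-FU alone 11 rose and 13 fell, beside 30.8% and 29.5% of all genes, and with chloroquine alone 10 rose and 6 fell, beside 20.3% and 19.1%. In either direction 28 members changed in the combination, 24 with 5-FU and 16 with chloroquine, where 55.4%, 60.3% and 39.4% of all tested genes did. The members' shares were 35.1% up and 40.5% down in the combination, 29.7% and 35.1% with 5-FU, and 27% and 16.2% with chloroquine. The median log2 fold change of the members was -0.069 in the combination, 0.0092 with 5-FU and 0.032 with chloroquine, against 0.0057, 0.010 and 0.023 over all tested genes. With 5-FU and with chloroquine these shares lay near those of all tested genes and are no result about the members. In the combination they were above those of all tested genes, but this difference was not tested. Every member had at least 78 counts in each library, and shares among genes of like counts were not computed. In RNA from bulk cells, fewer cells of a type and less RNA per cell cannot be told apart. Log2 changes of 0.5 or more in size were reached by 13 called members in the combination, 9 with 5-FU and 3 with chloroquine.

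**Figure D1:**
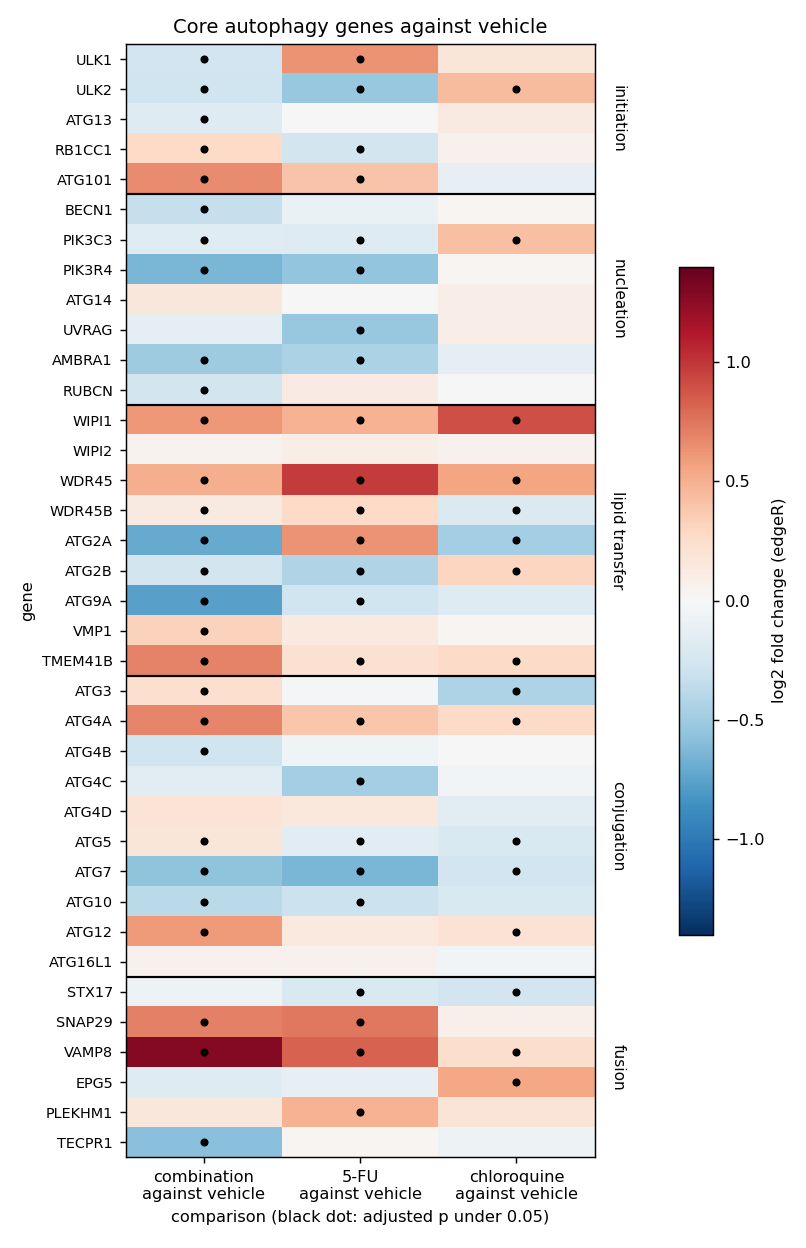
Log2 fold changes of the 37 genes, ordered by step of the pathway, for the combination, 5-FU and chloroquine against vehicle, with a black dot on those that passed the test. VAMP8 in the combination (1.28) is the highest of the values shown and ATG9A in the combination (-0.76) the lowest.

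All 3 of these comparisons use the same 4 vehicle libraries. In the 8 libraries with few COL1A2 counts, 11 members rose and 12 fell in the combination, 10 and 11 with 5-FU, and 7 and 4 with chloroquine, for which that fit holds 1 library. Scaling by library size alone, without TMM, raised the median of all genes by 0.15 in the combination, 0.19 with 5-FU and 0.096 with chloroquine, and 18 members then rose and 7 fell in the combination, 19 and 7 with 5-FU and 17 and 3 with chloroquine. Under that scaling 7422 genes rose and 3659 fell in the combination, 8291 and 3669 with 5-FU and 5435 and 2410 with chloroquine, so every change below is relative to the TMM scale. Against vehicle, the libraries of the combination lay wholly above for 14 members and wholly below for 14, those of 5-FU for 10 and 10, and those of chloroquine for 12 and 9. Over all tested genes, 58.8%, 58.1% and 47.8% did not overlap in these 3 comparisons.

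Per kilobase of exon in vehicle, the members spanned 0.914 CPM for PLEKHM1 to 37.1 CPM for WDR45B, with a median of 8.19. ATG3 (21.8 CPM per kilobase) and RB1CC1 (20.9) followed WDR45B, while EPG5 (1.25), ATG10 (1.35) and WIPI1 (1.5) lay near the low end. These lengths are the union of all GENCODE 29 exons of a gene, which can exceed the transcripts the cells use. The labels name a directional library kit but not whether the counting used strand. Reads of ATG10 (median 137 counts) could therefore include those of RPS23 (8901 counts), which overlaps 374 of its exon bases on the opposite strand, and PLEKHM1 (210) has a near copy, PLEKHM1P1, with 295 counts. WDR45 shares 757 exon bases with PRAF2 on the same strand, ATG7 shares 1596 with VGLL4 on the opposite strand, and BECN1 shares 300 with PSME3. On the same strand, ATG9A (987 counts) shares 1833 exon bases with AC068946.2 (7 counts). Opposite-strand overlaps also join WIPI1 (153 counts) to ARSG (56) over 828 bases, ATG4D (854) to KRI1 (2391) over 341, SNAP29 (2075) to PI4KA (3213) over 225 and RUBCN (339) to FYTTD1 (2831) over 118. In all, 21 members had 34 such overlaps or near copies, and their values are uncertain to that extent. A near copy here is a gene whose symbol names it as a pseudogene of the member, and sequences were not compared. Some of the 34 partners, BECN1P2 and ATG3P1 among them, had a median of 0 counts.

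Promoter sequence was examined for 31 members matched in the RefSeq table (GRCh38.p14), which gave 36 windows of 300 bases, 250 before to 50 after a transcription start. The motifs searched on both strands were CACGTG, the core of the element bound by TFEB and TFE3 at lysosomal and autophagy genes, and TGATGNAA, a core of the element bound by ATF4 with a C/EBP partner. CACGTG was in 3 of the members' 36 windows (8.33%), those of ATG3, SNAP29 and ATG14, and in 7.26% of all 35116 windows. TGATGNAA was in 1 of the 36 (2.78%), a window of WDR45, and in 3.62% of all windows. Neither motif overlaps the other in these windows, and a match is a run of letters, not a measured binding site. Shown are 3 windows with a match, in genes described below, and that of VAMP8, the member with the largest rise, which has none, with matches in capitals. ATG3 lies at chr3:112561913-112562212 (minus strand, matches from -18 and +6), SNAP29 at chr22:20858757-20859056 (plus strand, match from -184), WDR45 with its second listed start at chrX:49079838-49080137 (minus strand, match from -6) and VAMP8 at chr2:85577336-85577635 (plus strand).
ATG3: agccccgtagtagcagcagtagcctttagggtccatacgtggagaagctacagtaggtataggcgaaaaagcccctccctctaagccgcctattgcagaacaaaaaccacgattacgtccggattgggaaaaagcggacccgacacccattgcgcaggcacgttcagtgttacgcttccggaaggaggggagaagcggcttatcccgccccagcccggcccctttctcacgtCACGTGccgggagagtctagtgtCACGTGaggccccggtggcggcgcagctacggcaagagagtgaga
SNAP29: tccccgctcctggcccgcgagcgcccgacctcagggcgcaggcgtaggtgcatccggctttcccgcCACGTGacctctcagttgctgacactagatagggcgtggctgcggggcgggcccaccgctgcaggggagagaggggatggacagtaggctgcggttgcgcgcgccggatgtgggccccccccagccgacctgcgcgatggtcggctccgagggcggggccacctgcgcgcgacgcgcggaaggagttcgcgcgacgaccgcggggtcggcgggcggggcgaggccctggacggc
WDR45: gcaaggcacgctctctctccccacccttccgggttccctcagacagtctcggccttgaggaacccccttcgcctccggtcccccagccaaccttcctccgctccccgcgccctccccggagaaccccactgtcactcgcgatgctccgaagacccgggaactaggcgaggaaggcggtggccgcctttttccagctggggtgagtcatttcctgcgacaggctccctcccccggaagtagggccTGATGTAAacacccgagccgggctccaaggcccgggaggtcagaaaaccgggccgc
VAMP8: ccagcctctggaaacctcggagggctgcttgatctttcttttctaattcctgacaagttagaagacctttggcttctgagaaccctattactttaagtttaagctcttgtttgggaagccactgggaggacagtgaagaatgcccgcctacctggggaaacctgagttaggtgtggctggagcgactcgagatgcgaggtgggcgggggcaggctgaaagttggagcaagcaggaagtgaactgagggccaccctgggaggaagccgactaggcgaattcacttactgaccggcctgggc
The median GC content of the members' windows was 65.2%, against 58.7% over all windows. ATG3 fell with chloroquine and rose in the combination, SNAP29 rose with 5-FU and in the combination, ATG14 was not called in either direction, WDR45 rose under all 3 treatments, and VAMP8 rose in the combination and with 5-FU, while its call with chloroquine (0.25) was lost without chloroquine replicate 3 (0.13).

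In the initiation complex, ULK1, the kinase that starts autophagy, went opposite ways with 5-FU alone and in the combination. ULK1 had 62.6, 60.7 and 65.7 CPM in the combination, 138, 102 and 112 CPM with 5-FU and 85.5, 85.2 and 86.2 CPM with chloroquine, against 76.01, 76.2, 77.5 and 73.7 CPM in vehicle. The combination libraries all lay below vehicle and the 5-FU libraries all above it. The log2 fold change was -0.27 ± 0.08 in the combination (edgeR adjusted p = 0.0105) and 0.63 ± 0.078 with 5-FU (edgeR adjusted p = 7.19e-06). With chloroquine alone it was 0.17 ± 0.079 and did not pass, although the 3 libraries lay above vehicle, and it passed at 0.16 without 5-FU replicate 1. Its paralog ULK2, a kinase of the same complex, stood at 22.2, 20.7 and 19.9 CPM in the combination, 16.7, 18.1 and 17.7 CPM with 5-FU and 34.4, 35.8 and 33.3 CPM with chloroquine, against 25.1, 25.5, 24.6 and 26.2 CPM in vehicle. ULK2 rose with chloroquine (log2 0.45 ± 0.056) and fell with 5-FU (-0.53 ± 0.058) and in the combination (-0.27 ± 0.057), with no overlap in any of the 3.

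Of the other 3 subunits, RB1CC1 and ATG101 rose and ATG13 fell in the combination. RB1CC1, also called FIP200, is the scaffold of the complex and had 194, 199.9 and 184 CPM in the combination, 112, 151 and 137 CPM with 5-FU and 167, 163 and 168 CPM with chloroquine, against 145, 165, 157 and 169 CPM in vehicle. It rose in the combination (log2 0.28 ± 0.081), where no library overlapped vehicle, and fell with 5-FU (-0.25 ± 0.082), where 1 library overlapped. ATG101, which stabilises ATG13, was measured at 35.7, 36.6 and 39.4 CPM in the combination, 37.8, 27.3 and 28.1 CPM with 5-FU and 20.3, 18.9 and 26.4 CPM with chloroquine, against 23.2, 26.2, 22.6 and 22.2 CPM in vehicle. It rose in the combination (0.66 ± 0.12) and with 5-FU (0.40 ± 0.12). ATG13, the adaptor that links the kinase to the scaffold, was at 104, 96.5 and 106 CPM in the combination, 123, 111 and 117 CPM with 5-FU and 128, 125 and 126 CPM with chloroquine, against 109.8, 124, 113 and 118 CPM in vehicle. ATG13 fell in the combination (-0.18 ± 0.056), where all 3 libraries lay below vehicle. Without 5-FU replicate 1, the calls of RB1CC1 (-0.15) and ATG101 (0.23) with 5-FU were lost, and that of ATG13 in the combination was lost without combination replicate 2 (-0.15) and in the 8 libraries with few COL1A2 counts (-0.14). Under library size alone ULK1 (-0.12), ULK2 (-0.13) and ATG13 (-0.034) did not pass in the combination, nor RB1CC1 with 5-FU (-0.061).

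**Figure D2:**
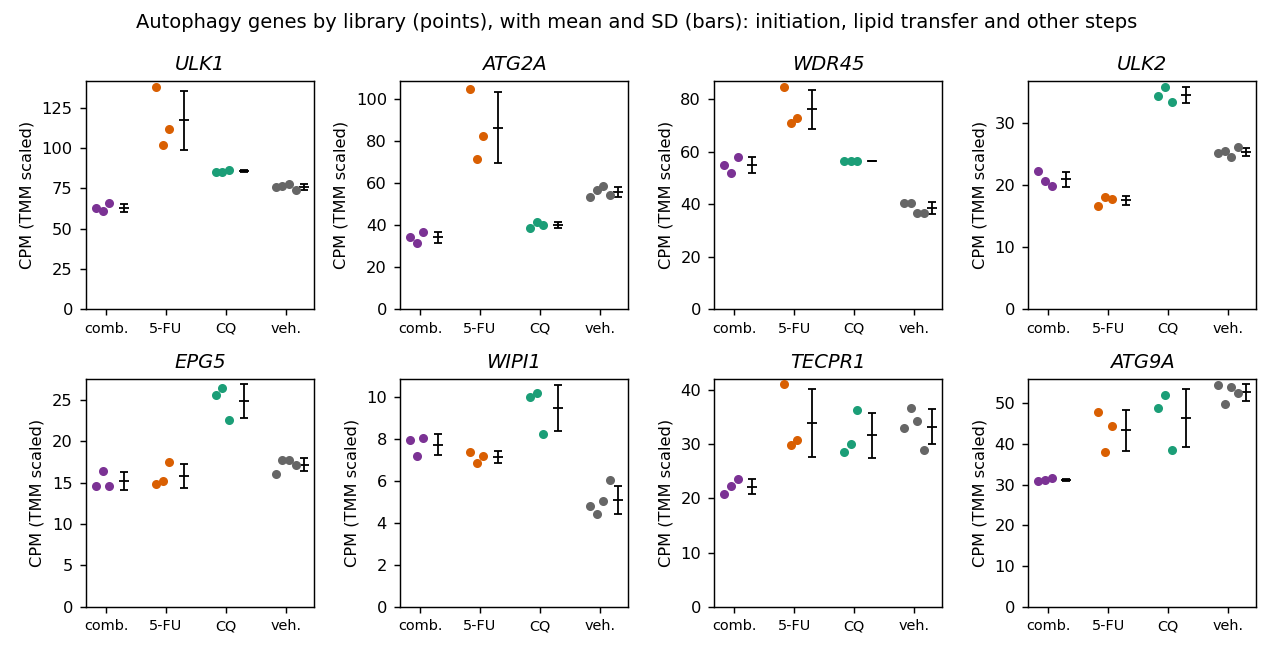
CPM per library of initiation, lipid transfer and other genes, with the mean and SD of each group, from combination on the left to vehicle on the right of each panel. ULK1 and ATG2A were above vehicle in all 5-FU libraries and below it in all combination libraries.

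The 7 nucleation genes are subunits and regulators of the complexes that make phosphatidylinositol 3-phosphate, 1 of them, RUBCN, an inhibitor. Of these 7, 5 fell in the combination, 4 fell with 5-FU and none rose in either. Scaling by library size alone let 1 rise in the combination and 2 with 5-FU. With chloroquine alone 1 rose and none fell. Of all tested genes, 28.1% rose and 27.2% fell in the combination, 30.8% and 29.5% with 5-FU, and 20.3% and 19.1% with chloroquine. The counts of this step were not tested against these shares. PIK3R4, the regulatory subunit VPS15, had 59.4, 59.4 and 50.1 CPM in the combination, 58.01, 60.7 and 60.7 CPM with 5-FU and 91.6, 89.1 and 88.04 CPM with chloroquine, against 82.9, 89.5, 89.6 and 89.2 CPM in vehicle. Both groups given 5-FU lay well below vehicle, with log2 fold changes of -0.64 ± 0.062 in the combination (edgeR adjusted p = 7.66e-07) and -0.55 ± 0.062 with 5-FU (edgeR adjusted p = 2.56e-06). PIK3C3, the lipid kinase VPS34 itself, reached 39.8, 38.8 and 35.7 CPM in the combination, 36.1, 37.3 and 39.8 CPM with 5-FU and 57.3, 57.6 and 57.1 CPM with chloroquine, against 39.5, 44.1, 41.7 and 45.6 CPM in vehicle. It rose with chloroquine (0.42 ± 0.06) with all 3 libraries above vehicle. It passed as lower with 5-FU (-0.18 ± 0.061) and in the combination (-0.17 ± 0.061), but libraries overlapped in both.

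BECN1, the Beclin subunit at the centre of the complex, had 50.5, 49.2 and 51.05 CPM in the combination, 61.6, 56.7 and 58.3 CPM with 5-FU and 64.4, 64.02 and 63.1 CPM with chloroquine, against 64.4, 61.5, 63.8 and 61.2 CPM in vehicle. Only in the combination did BECN1 pass the test against vehicle (-0.32 ± 0.047), with all 3 libraries below all 4 of vehicle, and with 5-FU it passed at -0.13 when 5-FU replicate 1 was left out. UVRAG, which directs the lipid kinase to endosomes, was at 34.1, 28.4 and 30.8 CPM in the combination, 23.7, 22.4 and 24.6 CPM with 5-FU and 36.1, 35.1 and 37.9 CPM with chloroquine, against 33.5, 35.1, 33.8 and 34.1 CPM in vehicle. It fell with 5-FU (-0.53 ± 0.065), while in the combination (-0.13 ± 0.064) it did not pass, with 1 library inside the vehicle range, unless combination replicate 1 was left out (-0.21). RUBCN, an inhibitor of the UVRAG form of the complex, showed 13.6, 12.8 and 14.1 CPM in the combination, 19.6, 15.9 and 16.99 CPM with 5-FU and 18.04, 15.8 and 14.98 CPM with chloroquine, against 14.9, 15.8, 16.5 and 17.5 CPM in vehicle. It fell in the combination (-0.26 ± 0.088) and did not pass with 5-FU (0.11 ± 0.086). AMBRA1, a regulator of Beclin, fell in the combination (-0.50 ± 0.079) and with 5-FU (-0.44 ± 0.079), and ATG14, which brings the complex to sites of autophagosome formation, passed in no comparison with all libraries in (0.20 in the combination, passing, without vehicle replicate 3).

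Some of these nucleation calls rested on single libraries. PIK3C3 was lost with 5-FU without vehicle replicate 2 (-0.16), vehicle replicate 4 (-0.15) or 5-FU replicate 1 (-0.15), and in the combination without vehicle replicate 2 (-0.15), vehicle replicate 4 (-0.13) or combination replicate 3 (-0.12). RUBCN was lost in the combination without vehicle replicate 4 (-0.22) or combination replicate 2 (-0.23). In the 8 libraries with few COL1A2 counts neither PIK3C3 (-0.15 with 5-FU and -0.15 in the combination) nor RUBCN (-0.19) passed, and 3 of the 7 genes fell with 5-FU and 3 in the combination. Under library size alone 3 fell and 1 rose in the combination and 3 fell and 2 rose with 5-FU, among them ATG14, which passed as higher in both (0.30 and 0.19).

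Among the 9 genes that read the lipid mark or move lipid, 5 rose and 3 fell in the combination, 5 rose and 2 fell with 5-FU, and 4 rose and 2 fell with chloroquine. Shares up and down over all tested genes were, in that order, 28.1% and 27.2%, 30.8% and 29.5%, and 20.3% and 19.1%. The counts of this step were not tested against them. ATG2A, a bridge that carries lipid from the endoplasmic reticulum to the growing membrane, had 34.5, 31.3 and 36.5 CPM in the combination, 105, 71.6 and 82.6 CPM with 5-FU and 38.4, 41.4 and 40.2 CPM with chloroquine, against 53.2, 56.5, 58.6 and 54.5 CPM in vehicle. The combination and chloroquine libraries all lay below vehicle and the 5-FU libraries all above it. Log2 fold changes were -0.71 ± 0.10 in the combination (edgeR adjusted p = 4.58e-05), 0.63 ± 0.099 with 5-FU (edgeR adjusted p = 6.63e-05) and -0.48 ± 0.10 with chloroquine (edgeR adjusted p = 0.00218). Its paralog ATG2B rose with chloroquine (0.30 ± 0.08) and fell with 5-FU (-0.42 ± 0.082) and in the combination (-0.26 ± 0.082). ATG9A, the membrane protein that spreads lipid between the leaflets of the membrane, was at 31.03, 31.1 and 31.6 CPM in the combination, 47.8, 37.98 and 44.4 CPM with 5-FU and 48.8, 51.9 and 38.4 CPM with chloroquine, against 54.4, 49.8, 54.1 and 52.6 CPM in vehicle. ATG9A fell in the combination (-0.76 ± 0.095, edgeR adjusted p = 1e-05) and with 5-FU (-0.28 ± 0.092), and did not pass with chloroquine (-0.18 ± 0.092), where 1 library lay inside the vehicle range and 2 below it.

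WIPI1, a reader of the lipid mark with few counts here, had 7.96, 7.19 and 8.08 CPM in the combination, 7.41, 6.85 and 7.18 CPM with 5-FU and 10.01, 10.2 and 8.25 CPM with chloroquine, against 4.84, 4.45, 5.06 and 6.03 CPM in vehicle. All treated libraries lay above all vehicle libraries, and WIPI1 rose in the combination (0.60 ± 0.11), with 5-FU (0.49 ± 0.11) and with chloroquine (0.90 ± 0.11). WDR45, the reader WIPI4 that binds ATG2, was measured at 55.05, 51.96 and 57.96 CPM in the combination, 84.5, 71.0 and 72.8 CPM with 5-FU and 56.4, 56.3 and 56.3 CPM with chloroquine, against 40.6, 40.4, 36.6 and 36.7 CPM in vehicle. No treated library overlapped vehicle, and WDR45 rose by a log2 fold change of 0.51 ± 0.069 in the combination, 0.98 ± 0.068 with 5-FU and 0.55 ± 0.069 with chloroquine. WDR45B, the reader WIPI3, ranged from 142 to 147 CPM in the combination, 156 to 162 CPM with 5-FU and 106 to 120.0 CPM with chloroquine, against 127 to 136 CPM in vehicle. It rose in the combination (0.13 ± 0.048) and with 5-FU (0.28 ± 0.048) and fell with chloroquine (-0.20 ± 0.049), while WIPI2, the reader that recruits the conjugation machinery, passed in no comparison with all libraries in (0.15 with 5-FU, passing, without 5-FU replicate 2).

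TMEM41B and VMP1 are scramblases of the endoplasmic reticulum that balance lipid between membrane leaflets. TMEM41B had 84.8, 83.3 and 83.1 CPM in the combination, 52.05, 65.1 and 62.8 CPM with 5-FU and 61.5, 57.96 and 68.2 CPM with chloroquine, against 53.5, 52.04, 52.4 and 49.8 CPM in vehicle. The combination stood apart from every other group, at 0.69 ± 0.073 against vehicle (edgeR adjusted p = 1.99e-06). TMEM41B also passed with 5-FU (0.21 ± 0.074), where 1 library overlapped vehicle, and with chloroquine (0.27 ± 0.074). VMP1 rose in the combination (0.32 ± 0.056) and did not pass with 5-FU (0.13 ± 0.057, passing at 0.20 without 5-FU replicate 1) or chloroquine (0.033 ± 0.057).

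Within this group of lipid genes the smaller changes depended on single libraries. With chloroquine, TMEM41B was lost without chloroquine replicate 3 (0.18) and ATG2B without chloroquine replicate 2 (0.24). With 5-FU, TMEM41B was lost without vehicle replicate 4 (0.19), 5-FU replicate 2 (0.14) or 5-FU replicate 3 (0.17), and ATG9A without 5-FU replicate 2 (-0.20). In the combination, ATG2B was lost without combination replicate 3 (-0.21), and WDR45B without any 1 of vehicle replicates 1 to 3, combination replicates 1 to 3, chloroquine replicate 1 or 5-FU replicate 3 (0.10 to 0.13). In the 8 libraries with few COL1A2 counts TMEM41B with 5-FU (0.12) and WDR45B in the combination (0.12) did not pass, and ATG2B was at 0.15 with chloroquine, with 1 library of that group. Under library size alone WDR45B with chloroquine (-0.10), ATG9A with 5-FU (-0.091) and ATG2B in the combination (-0.11) did not pass.

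Of the 10 conjugation genes, 4 rose and 3 fell in the combination, 1 rose and 4 fell with 5-FU, and 2 rose and 3 fell with chloroquine. Under library size alone these counts were 6 and 1 in the combination, 4 and 2 with 5-FU, and 2 and 2 with chloroquine. On the TMM scale, 28.1% of all tested genes rose and 27.2% fell in the combination. The shares were 30.8% and 29.5% with 5-FU, and 20.3% and 19.1% with chloroquine. The counts of this step were not tested against these shares. ATG4A, a protease that trims ATG8 proteins, had 61.7, 62.7 and 59.9 CPM in the combination, 48.3, 50.5 and 51.6 CPM with 5-FU and 47.1, 47.8 and 43.1 CPM with chloroquine, against 38.9, 37.5, 38.1 and 38.4 CPM in vehicle. The groups did not overlap with vehicle under any treatment, and ATG4A rose by 0.68 ± 0.05 in the combination (edgeR adjusted p = 5.21e-08), 0.39 ± 0.051 with 5-FU and 0.27 ± 0.051 with chloroquine on the log2 scale. ATG12, the ubiquitin-like protein joined to ATG5, stood at 100.5, 102 and 94.5 CPM in the combination, 60.1, 79.5 and 76.1 CPM with 5-FU and 75.2, 76.2 and 75.7 CPM with chloroquine, against 66.7, 64.9, 65.95 and 65.1 CPM in vehicle. ATG12 rose in the combination (0.59 ± 0.075) and, just inside the threshold, with chloroquine (0.21 ± 0.076, edgeR adjusted p = 0.0441). With 5-FU it was at 0.13 ± 0.076 and did not pass, 1 library lying below and 2 above vehicle, and it passed at 0.24 without 5-FU replicate 1.

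ATG7, the activating enzyme for both ATG12 and ATG8 proteins, had 20.9, 19.8 and 20.9 CPM in the combination, 20.6, 19.9 and 17.8 CPM with 5-FU and 24.7, 24.5 and 26.1 CPM with chloroquine, against 28.8, 30.9, 29.6 and 31.7 CPM in vehicle. All treated libraries lay below all vehicle libraries, and ATG7 fell in the combination (-0.56 ± 0.061, edgeR adjusted p = 2.78e-06), with 5-FU (-0.64 ± 0.062) and with chloroquine (-0.27 ± 0.061). ATG3 is the conjugating enzyme that attaches ATG8 proteins to lipid, and its window above holds 2 CACGTG matches. It was at 157, 144 and 169 CPM in the combination, 129, 130.3 and 131 CPM with 5-FU and 89.8, 93.4 and 114 CPM with chloroquine, against 136, 142, 132 and 122 CPM in vehicle. It fell with chloroquine (-0.43 ± 0.081, edgeR adjusted p = 0.000786) and rose in the combination (0.24 ± 0.079, edgeR adjusted p = 0.0201), while 5-FU alone (-0.033 ± 0.079) did not pass. ATG5, the partner of ATG12, showed 52.1, 52.3 and 51.9 CPM in the combination, 39.1, 45.3 and 40.03 CPM with 5-FU and 39.2, 39.2 and 41.8 CPM with chloroquine, against 43.7, 46.7, 47.7 and 47.3 CPM in vehicle. It was likewise lower with chloroquine (-0.21 ± 0.059) and higher in the combination (0.17 ± 0.058), and it was lower with 5-FU (-0.16 ± 0.059).

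ATG4C, another ATG8 protease, had 51.5, 55.4 and 52.9 CPM in the combination, 37.1, 49.2 and 41.7 CPM with 5-FU and 56.2, 55.9 and 62.2 CPM with chloroquine, against 57.2, 60.4, 59.0 and 61.05 CPM in vehicle. It fell with 5-FU (-0.48 ± 0.079) and did not pass in the combination (-0.16 ± 0.078), although no library there overlapped vehicle and the test passed without 5-FU replicate 1 (-0.17) or 2 (-0.16). ATG4B, the protease acting on most ATG8 proteins, fell in the combination (-0.27 ± 0.077). ATG10, the conjugating enzyme for ATG12, passed as lower with 5-FU (-0.30 ± 0.11) and in the combination (-0.38 ± 0.11), subject to its overlap with RPS23. ATG4D and ATG16L1, the subunit that places the ATG12 and ATG5 conjugate on the membrane, did not pass against vehicle under any treatment with all libraries in, and ATG4D passed with 5-FU without 5-FU replicate 2 (0.25) and, without 5-FU replicate 1, in the combination (0.18) and with chloroquine (-0.18).

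**Figure D3:**
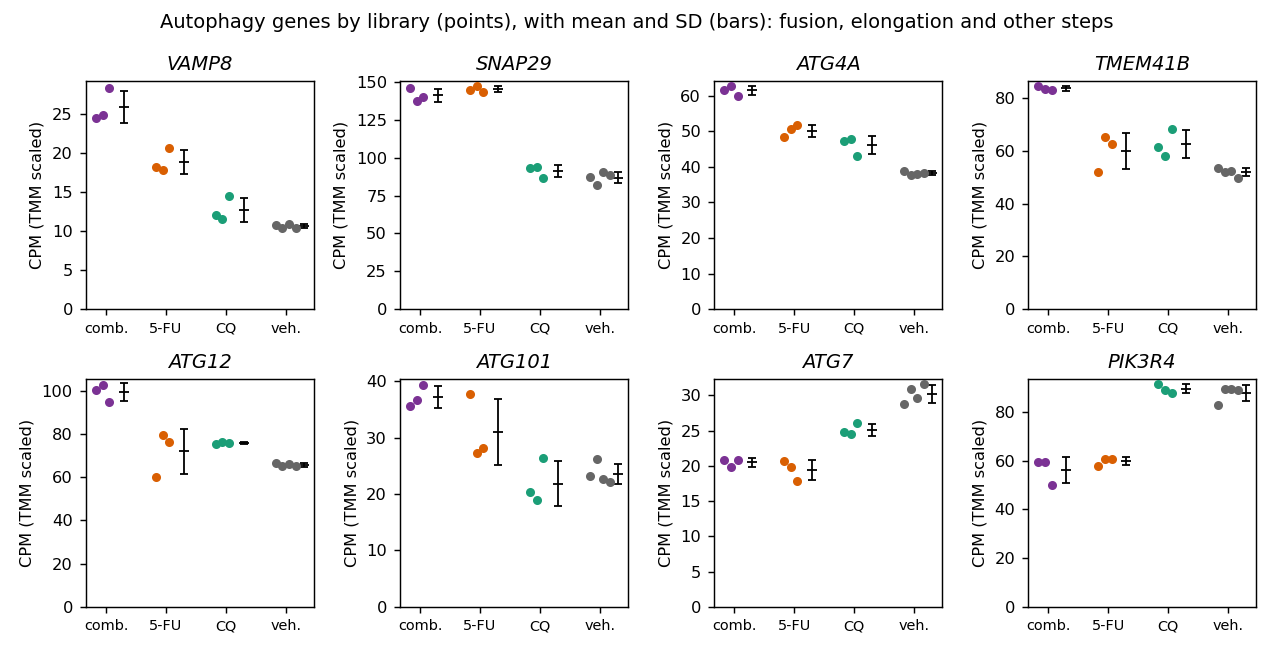
CPM per library of fusion, conjugation and other genes, with the mean and SD of each group, from combination on the left to vehicle on the right of each panel. VAMP8 was highest in the combination, and ATG7 lay below vehicle in every treated library.

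Calls of the conjugation genes with fold changes near the threshold were fragile. ATG12 with chloroquine was lost in 10 of 13 fits that each left out 1 library (0.19 to 0.21), all but those without 5-FU replicates 1 and 2 and combination replicate 3. ATG5 was lost with 5-FU without vehicle replicates 2, 3 or 4 or 5-FU replicates 1 or 3 (-0.16 to -0.12), and in the combination without vehicle replicate 1 or any of its own replicates (0.14 to 0.17). ATG3 in the combination was lost without vehicle replicate 4 (0.20), combination replicate 1 (0.22) or combination replicate 3 (0.18). ATG10 was lost with 5-FU without vehicle replicates 1 or 2 or 5-FU replicates 1 or 2 (-0.31 to -0.22), and in the combination without combination replicate 1 (-0.28). In the 8 libraries with few COL1A2 counts, ATG10 with 5-FU (-0.23) and ATG5 in the combination (0.17) did not pass. In the single chloroquine library among them, values against vehicle were 0.17 for ATG4A, -0.14 for ATG5, -0.20 for ATG7 and 0.20 for ATG12, none of which passed. Under library size alone ATG5 did not pass with chloroquine (-0.12) and turned to 0.032 with 5-FU, without passing, and ATG4B (-0.13) and ATG10 (-0.23) in the combination and ATG10 with 5-FU (-0.11) did not pass.

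Of the 6 fusion genes, 2 rose and 1 fell in the combination, 3 rose and 1 fell with 5-FU, and 2 rose and 1 fell with chloroquine. Shares up and down over all tested genes were, in that order, 28.1% and 27.2%, 30.8% and 29.5%, and 20.3% and 19.1%. The counts of this step were not tested against them. VAMP8, the SNARE on the lysosomal side, had 24.5, 24.9 and 28.4 CPM in the combination, 18.2, 17.8 and 20.6 CPM with 5-FU and 12.03, 11.6 and 14.5 CPM with chloroquine, against 10.8, 10.4, 10.9 and 10.4 CPM in vehicle. No combination library overlapped any other group, nor did any 5-FU library overlap vehicle. VAMP8 rose by 1.28 ± 0.085 on the log2 scale in the combination (edgeR adjusted p = 1.86e-08), by 0.83 ± 0.086 with 5-FU (edgeR adjusted p = 1.36e-06) and by 0.25 ± 0.091 with chloroquine (edgeR adjusted p = 0.0421). SNAP29, the SNARE that bridges autophagosome and lysosome, reached 146, 138 and 140.0 CPM in the combination, 145, 147 and 144 CPM with 5-FU and 93.5, 93.9 and 86.5 CPM with chloroquine, against 86.9, 81.8, 90.4 and 88.3 CPM in vehicle. It rose in the combination (0.70 ± 0.049, edgeR adjusted p = 3.25e-08) and with 5-FU (0.74 ± 0.049), and did not pass with chloroquine (0.072 ± 0.05). STX17, the SNARE on the autophagosome, was at 41.8, 38.3 and 36.9 CPM in the combination, 32.8, 36.0 and 37.2 CPM with 5-FU and 34.01, 34.7 and 33.5 CPM with chloroquine, against 38.1, 43.5, 40.1 and 42.02 CPM in vehicle. STX17 fell with 5-FU (-0.21 ± 0.064) and with chloroquine (-0.26 ± 0.065), and in the combination (-0.069 ± 0.064) it did not pass.

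Among the tethers and adaptors, EPG5 rose with chloroquine, TECPR1 fell in the combination and PLEKHM1 rose with 5-FU. EPG5, which holds autophagosomes to late endosomes and lysosomes, had 14.6, 16.4 and 14.6 CPM in the combination, 14.8, 15.2 and 17.5 CPM with 5-FU and 25.7, 26.4 and 22.6 CPM with chloroquine, against 16.1, 17.8, 17.7 and 17.1 CPM in vehicle. Chloroquine alone stood above every other group (log2 0.54 ± 0.077, edgeR adjusted p = 8.96e-05). TECPR1, a tether on lysosomes, showed 20.7, 22.3 and 23.5 CPM in the combination, 41.1, 29.9 and 30.7 CPM with 5-FU and 28.6, 30.04 and 36.3 CPM with chloroquine, against 33.03, 36.7, 34.2 and 28.9 CPM in vehicle. TECPR1 fell in the combination (-0.58 ± 0.12) with all 3 libraries below the rest. PLEKHM1, an adaptor between autophagosomes and lysosomes, was at 9.74, 8.81 and 9.61 CPM in the combination, 12.98, 11.8 and 10.7 CPM with 5-FU and 9.64, 10.6 and 8.25 CPM with chloroquine, against 8.68, 9.13, 8.41 and 7.53 CPM in vehicle. It rose with 5-FU (0.49 ± 0.098), subject to the near copy PLEKHM1P1. VAMP8 with chloroquine was lost in 11 of 13 fits that each left out 1 library, all but those without chloroquine replicate 2 and combination replicate 3, with values of 0.13 without chloroquine replicate 3 to 0.28 without chloroquine replicate 1. STX17 did not pass under library size alone with chloroquine (-0.17) or 5-FU (-0.018), and was at -0.28 with chloroquine, not passing, in the 8 libraries with few COL1A2 counts, 1 of them chloroquine.

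Adding chloroquine to 5-FU raised 11 members and lowered 10 against 5-FU alone, 21 of 37 in all, beside 20.2% up, 18.3% down and 38.5% in either direction of all tested genes. No label pairs these libraries, but same-numbered ones were taken as pairs because their deviations correlated, and with that block 9 rose and 8 fell. The highest correlation (0.743) was that of replicates 2, which held 159 (5-FU) and 153 (combination) COL1A2 counts. Fold changes with an SE are from the fit without pairs. Conjugation genes made up 5 of the 11 rises and none of the falls, though ATG4B, just outside the threshold (-0.21 ± 0.082, edgeR adjusted p = 0.0558), passed as lower with RLE size factors (-0.21), with the DESeq2 Wald test (-0.21), with a COL1A2 covariate (-0.21), under library size alone (-0.25), in the 8 libraries with few COL1A2 counts (-0.29) and without 5-FU replicate 2 (-0.31). ATG2A fell furthest (log2 -1.34 ± 0.11), followed by ULK1 (-0.90 ± 0.084), TECPR1 (-0.61 ± 0.12), ATG9A (-0.48 ± 0.10) and WDR45 (-0.47 ± 0.071). The highest rises were those of RB1CC1 (0.53 ± 0.087), TMEM41B (0.48 ± 0.078), ATG12 (0.46 ± 0.08) and VAMP8 (0.45 ± 0.086). The pairing ended the calls of ULK2 (0.24), ATG13 (-0.21), WDR45B (-0.17) and VMP1 (0.18). ATG3, 1 of the 5 conjugation genes, was lost without 5-FU replicate 1 (0.26) or 3 (0.27) or combination replicate 1 (0.26) or 3 (0.21). The conjugation count was not tested against the shares of all tested genes.

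Adding 5-FU to chloroquine raised 12 members and lowered 16 against chloroquine alone, 28 of 37 in all, beside 24.8% up, 25.7% down and 50.6% in either direction of all tested genes. Nucleation genes made up 6 of the 16 falls and none of the rises, PIK3R4 (-0.67 ± 0.065) and PIK3C3 (-0.59 ± 0.064) being the lowest of them. Of the 6, UVRAG was lost without chloroquine replicate 3 (-0.19) or combination replicate 2 (-0.15). RUBCN was lost without chloroquine replicate 1 (-0.19) or combination replicate 1 (-0.27) or 2 (-0.22). With the DESeq2 Wald test, and also under library size alone, 5 of the 7 nucleation genes fell and 0 rose. The count of this step was not tested against the shares of all tested genes. ULK2 (-0.72 ± 0.06) and EPG5 (-0.71 ± 0.083) fell furthest, and VAMP8 (1.03 ± 0.09), ATG101 (0.77 ± 0.13), ATG3 (0.66 ± 0.085) and SNAP29 (0.63 ± 0.052) rose furthest. The members' median log2 fold change was -0.12 here and 0.013 in the combination against 5-FU, while that of all tested genes was -0.014 and 0.025.

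The interaction asked whether the log2 effect of chloroquine in the presence of 5-FU (combination minus 5-FU) differed from its effect without it (chloroquine minus vehicle). It passed for 18 of the 37 members, 7 above and 11 below the sum of the single effects, where 20.6% of all tested genes passed above, 19.3% below and 39.9% in all. Relative to that sum ULK1 stood at -1.07 ± 0.12 (edgeR adjusted p = 9.19e-06), WDR45 at -1.02 ± 0.099 (edgeR adjusted p = 4.16e-06), ATG2A at -0.86 ± 0.15 (edgeR adjusted p = 0.000424) and WIPI1 at -0.78 ± 0.16 (edgeR adjusted p = 0.00125). ULK1 and ATG2A were above vehicle with 5-FU alone and below it once chloroquine was added, whereas WDR45 and WIPI1 were above vehicle throughout but less in the combination than the single effects summed to. EPG5 (-0.60 ± 0.12), TECPR1 (-0.54 ± 0.17), PLEKHM1 (-0.51 ± 0.14), PIK3C3 (-0.41 ± 0.089), RUBCN (-0.38 ± 0.13), ATG13 (-0.31 ± 0.081) and BECN1 (-0.25 ± 0.068) were also below the sum. Above it were ATG3 (0.70 ± 0.12, edgeR adjusted p = 0.000327), ATG5 (0.54 ± 0.086), RB1CC1 (0.47 ± 0.12), STX17 (0.40 ± 0.094), ATG4C (0.35 ± 0.11), ATG7 (0.35 ± 0.09) and UVRAG (0.31 ± 0.094). All 4 conjugation genes among the 18 lay above the sum, and all 3 genes of lipid reading and transfer lay below it. Under library size alone 2 conjugation genes passed above and 1, ATG4B (-0.36), below. With a COL1A2 covariate 5 passed above and 1 below. Without 5-FU replicate 2, ATG4B (-0.29) passed below, and ATG12 (0.35) and VMP1 (0.22) above. Without chloroquine replicate 3 or 5-FU replicate 2, TMEM41B passed above (0.29) and ATG9A below (-0.39 to -0.37). ATG4D passed above (0.39) without 5-FU replicate 1. The counts of these steps were not tested against the shares of all tested genes.

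**Figure D4:**
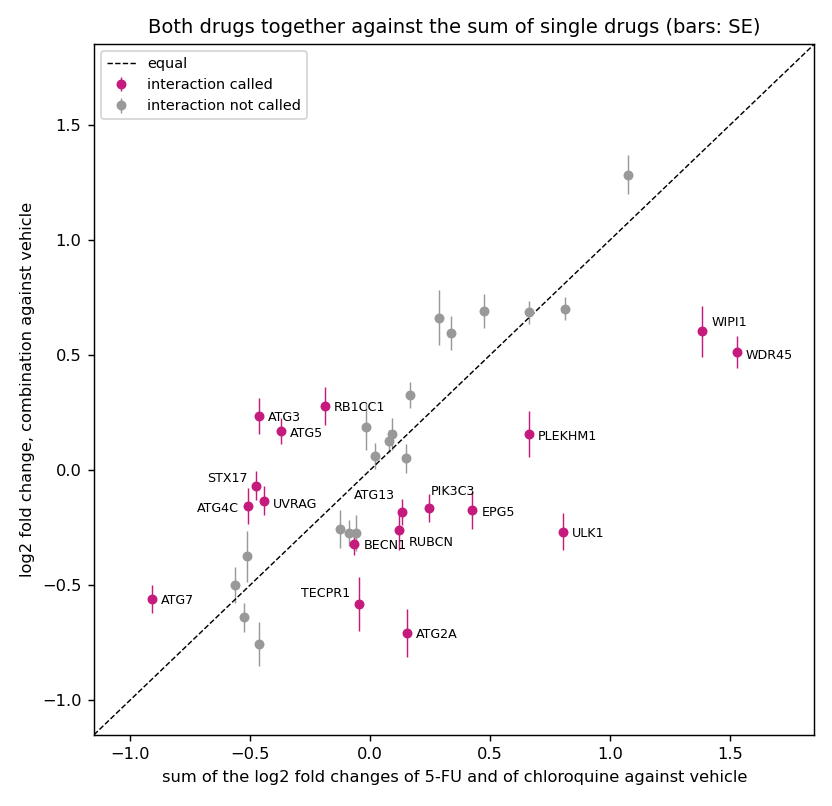
Log2 fold change of each member in the combination against vehicle (vertical, bars are its SE) over the sum of its log2 fold changes with 5-FU and with chloroquine (horizontal), with a dashed line where the values are equal. The 18 named genes passed the interaction test, and both axes use the same vehicle libraries.

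Several interaction calls were sensitive to the libraries used. TECPR1 was lost without chloroquine replicate 3 (-0.42), 5-FU replicate 1 (-0.37) or combination replicate 1 (-0.48), RUBCN without vehicle replicate 1 (-0.35), chloroquine replicate 1 (-0.30), 5-FU replicate 1 (-0.28), combination replicate 1 (-0.37) or combination replicate 2 (-0.33), and ATG4C without chloroquine replicate 1 (0.33) or 2 (0.33). In the 8 libraries with few COL1A2 counts, with 1 chloroquine library, 4 members passed above and 7 below, and the calls of ATG13 (-0.31), BECN1 (-0.23), UVRAG (0.28), RUBCN (-0.32), ATG4C (0.33), ATG7 (0.32) and PLEKHM1 (-0.20) were lost. BECN1 was also lost with no filter on low counts (-0.23). Under library size alone, which shifted the median of all genes by -0.14 in this comparison and gave 2379 genes above and 5063 below, 3 members passed above and 17 below, and RB1CC1 (0.33), UVRAG (0.17), ATG4C (0.21) and ATG7 (0.21) did not pass.

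Ratios of 2 paralogs within a library do not depend on scaling. ULK1 over ULK2 differed from vehicle by 0.0077 on the log2 scale in the combination, where libraries overlapped, by 1.15 with 5-FU and by -0.27 with chloroquine. ATG2A over ATG2B differed by -0.46 in the combination, 1.03 with 5-FU and -0.78 with chloroquine, with no overlap. WDR45 over WDR45B was higher by 0.38, 0.70 and 0.75 in the combination, with 5-FU and with chloroquine, ATG4A over ATG4B by 0.96, 0.46 and 0.26, and WIPI1 over WIPI2 by 0.56, 0.41 and 0.84. ATG4C over ATG4D differed by -0.34 in the combination, -0.62 with 5-FU (-0.36 without 5-FU replicate 1) and 0.13 with chloroquine. In 16 of 18 comparisons the libraries did not overlap, the exceptions being ULK1 over ULK2 in the combination (exact two-sided permutation p = 0.914) and WIPI1 over WIPI2 with 5-FU (exact permutation p = 0.114). The other 16 had the smallest exact permutation p that 3 against 4 libraries allow, 0.0571 (0.0643 after Benjamini-Hochberg adjustment over the 18), so none could pass a threshold of 0.05. All 18 comparisons share the same 4 vehicle libraries. Of all tested genes taken singly, 58.8% in the combination, 58.1% with 5-FU and 47.8% with chloroquine did not overlap vehicle. The share for ratios of other gene pairs was not computed, so the count of 16 is no result about these paralogs.

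**Figure D5:**
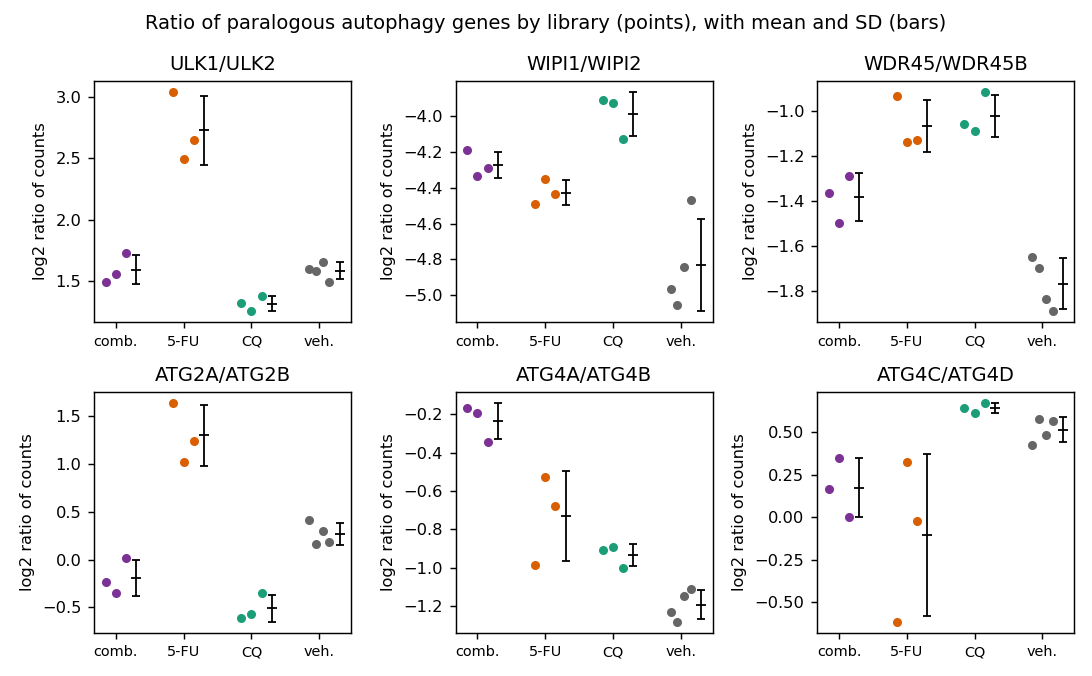
Log2 ratio of the counts of 2 paralogs in each library, with the mean and SD of each group, for 6 pairs, from combination on the left to vehicle on the right of each panel. ULK1 over ULK2 was highest in the 5-FU libraries and overlapped between the combination and vehicle.

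Of 18 tested genes of ATG8 proteins and cargo receptors, 12 rose and 1 fell in the combination, 9 rose and 1 fell with 5-FU, and 6 rose and none fell with chloroquine. Over all tested genes, 28.1% rose and 27.2% fell in the combination, 30.8% and 29.5% with 5-FU, and 20.3% and 19.1% with chloroquine. No list, the core included, was tested against these shares. The largest rise in each was that of OPTN, a receptor for mitochondria and protein aggregates, at 1.59 ± 0.048 in the combination, 1.30 ± 0.048 with 5-FU and 0.96 ± 0.049 with chloroquine. BNIP3, a mitochondrial receptor, was the gene that fell in the combination (-0.22 ± 0.067) and with 5-FU (-0.32 ± 0.067). SQSTM1, the receptor p62, had 54.9, 50.9 and 64.7 CPM in the combination, 83.4, 63.3 and 71.4 CPM with 5-FU and 30.9, 31.7 and 33.7 CPM with chloroquine, against 33.1, 36.3, 33.2 and 33.5 CPM in vehicle. It passed as higher in the combination (0.74 ± 0.093) and did not pass with chloroquine (-0.085 ± 0.098). The 5-FU libraries, at 63.3 to 83.4 CPM, also all lay above vehicle, so higher levels were not confined to the combination. MAP1LC3B, the ATG8 protein most used as an autophagosome marker, had 209, 212 and 193 CPM in the combination, 166, 203 and 197 CPM with 5-FU and 157, 157 and 157 CPM with chloroquine, against 144, 138, 139 and 129 CPM in vehicle.

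The counts of the next lists stand beside the same shares of all tested genes, against which they were not tested. These were 28.1% up and 27.2% down in the combination, 30.8% and 29.5% with 5-FU, and 20.3% and 19.1% with chloroquine. Of 29 tested genes of nutrient kinases and upstream control, 11 rose and 12 fell in the combination, 10 rose and 12 fell with 5-FU, and 9 rose and 7 fell with chloroquine. TP53INP1, a p53 target that binds ATG8 proteins, rose furthest in each, at 1.52 ± 0.091 in the combination, 1.27 ± 0.092 with 5-FU and 1.11 ± 0.094 with chloroquine. DDIT4, a stress-induced inhibitor of mTORC1, fell furthest in the combination (-1.01 ± 0.11), PRKAG1, a subunit of the energy sensor AMPK, with 5-FU (-1.03 ± 0.053) and TBC1D7, a subunit of the TSC complex, with chloroquine (-0.49 ± 0.11). Of 17 tested lysosomal tethering and fusion genes outside the core, 7 rose and 4 fell in the combination, 8 rose and 3 fell with 5-FU, and 2 rose and 2 fell with chloroquine. YKT6, a SNARE that can act beside STX17, rose furthest in the combination (0.61 ± 0.053) and with 5-FU (0.37 ± 0.054), and LAMP2, a lysosomal membrane protein, with chloroquine (0.21 ± 0.056). VPS16, a subunit of the HOPS tether, fell furthest in the combination (-0.71 ± 0.086), and the endosomal SNARE VTI1B fell furthest with 5-FU (-0.43 ± 0.052) and with chloroquine (-0.38 ± 0.052).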

How the data were processed

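Total RNA of 13 libraries was sequenced with a directional kit, per the labels' protocols. Unnormalised read counts, deposited by the authors as 1 table with human symbols, were used as deposited. DESeq, without version or role, and GRCm38, a mouse build, stand in the submitters' processing notes, so no coordinates were taken from the table. Aligner, counting tool, annotation and strand setting were not given in the sources used here. Groups and replicate numbers came from the labels. The members, gene lists and tests were chosen with earlier results of these data known.

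In edgeR 4.0.16 (R 4.3.3), filterByExpr kept 19514 genes with at least 99.84% of each library's counts, TMM gave the scaling, and a quasi-likelihood fit of all 13 libraries estimated the 4 group means. A gene passed in any of 6 comparisons when its p, adjusted by Benjamini-Hochberg over the 19514, was under 0.05. Deposited count totals were 17834539 to 23679833 per library, the spread between replicates exceeded sampling noise, and the lowest median count of a member was 137. Members passing against vehicle with a log2 change of 0.5 or more in size, or passing in the interaction, are given per library (27 of 37), and of the other lists the called gene with the largest rise and fall in each comparison with vehicle, with SQSTM1 and MAP1LC3B. Ratios of paralogs were compared by exact two-sided permutation of libraries (scipy 1.17.1). The fit was tested on simulated counts with known changes.

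Alternatives were library size alone, size factors (RLE) and the Wald test of DESeq2 1.42.0, no filter, a fit of the compared groups alone, a replicate block, the 8 libraries with under 100 COL1A2 counts, a covariate for that count, and leaving out each library. Replicate numbers were taken to pair the combination with 5-FU, the groups in which deviations from the group mean correlated by over 0.1 for every number (0.341, 0.743 and 0.339), so this pairing comes from the data, not the labels. The block in those groups alone was added after seeing the data. No pair of replicates agreed within sampling noise (chi-square per gene 1.6 to 21.3 over the pairs). Exon lengths and overlaps came from GENCODE 29 and promoters from RefSeq (GRCh38.p14), and neither annotation is known to be the one used for counting.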

Additional observations from a re-analysis of the deposited data

Results flagged for a closer look

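For 18 members the effect of chloroquine with 5-FU differed from its effect without it by the interaction test. The log2 values (effect with 5-FU minus effect without) were -1.07 for ULK1, -1.02 for WDR45, -0.86 for ATG2A, -0.78 for WIPI1, -0.60 for EPG5, -0.54 for TECPR1, -0.51 for PLEKHM1, -0.41 for PIK3C3, -0.38 for RUBCN, -0.31 for ATG13 and -0.25 for BECN1. They were 0.70 for ATG3, 0.54 for ATG5, 0.47 for RB1CC1, 0.40 for STX17, 0.35 for ATG4C, 0.35 for ATG7 and 0.31 for UVRAG.

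In vehicle, the only group of 4, a single library stood far from the other 3 for 2 of the 37 members, where chance flags about 1 in 20. These were vehicle replicate 1 for PIK3R4 (82.9 CPM, against 89.2 to 89.6) and vehicle replicate 3 for VMP1 (98.2 CPM, against 94.7 to 95.1).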

How the results depend on the processing

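Of 222 member results (37 genes in 6 comparisons), 135 passed the test, and 133 of these still passed with RLE size factors, 129 with DESeq2, 125 with no filter, 126 with the replicate block, 133 with a COL1A2 covariate, 112 of 117 in the groups compared alone, 111 with library size only and 105 in the 8 libraries with few COL1A2 counts. Without at least 1 library 33 lost and 29 others gained a call. With library size only, members up and down numbered 17 and 3 with chloroquine and 19 and 7 with 5-FU, 7 were down in the combination, and the interaction gave 3 above and 17 below. Under that scaling the sign turned with 5-FU for PIK3C3 (0.013, not passing), ATG5 (0.032, not passing) and ATG14 (0.19, passing, edgeR adjusted p = 0.0338), by construction of a shift of all genes upward. In the 8 libraries the interaction gave 4 above and 7 below, with 1 chloroquine library taken to vary like the other groups. Leaving out each library in turn gave 10 to 14 up and 13 to 16 down in the combination, 10 to 12 and 10 to 13 with 5-FU, 7 to 10 and 6 to 8 with chloroquine, 9 to 12 and 7 to 11 for the combination against 5-FU, 10 to 13 and 13 to 17 against chloroquine, and 6 to 10 and 9 to 13 for the interaction. The replicate block over all 13 libraries gave 11 up and 9 down for the combination against 5-FU. The block in those groups alone changed no other call of that comparison than the 4 named. No label pairs the numbers of any groups, and in each other pair of groups the correlations had mixed signs. For 5-FU with chloroquine they were -0.448, 0.457 and 0.513. Those of the combination with chloroquine were -0.441, 0.457 and 0.521. Without 5-FU replicate 1, 13 calls were lost and 15 gained, the most moved by 1 library. Paralog differences kept their direction when each library was left out, except ULK1 over ULK2 in the combination (-0.060 to 0.056). Depth was not the limit for most members, but WIPI1, ATG10 and PLEKHM1 had few counts.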
